A study of Drosophila melanogaster with 36 samples.

Results

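The step from mid night to dawn was followed in the transcriptome of LNv neurons, the ventral lateral group of the clock neurons in the brain of Drosophila melanogaster, by setting the libraries taken at ZT22 and ZT24 against those taken at ZT18 and ZT20. ZT is zeitgeber time, in hours from lights-on. Libraries were chosen by their labelled time alone, which gave 12 of the 36 libraries of the series: 6 at ZT22-24 and 6 at ZT18-20. Each group holds 2 libraries, 1 per time, from each of 3 conditions: HC25 (food with 1.5x sucrose and yeast, 25 °C), LC25 (0.5x sucrose and yeast, 25 °C) and HC18 (1.5x sucrose and yeast, 18 °C). All flies, at both times, were females labelled wild type on a w1118 background that carried Pdf>mGFP, a membrane GFP driven by the Pdf promoter, so that the sorted cells are defined by that driver. The series sampled each condition every 2 h through the day to follow transcripts that cycle in these neurons. Brains were dissected, GFP-positive cells were sorted by fluorescence, and their RNA was amplified with T7 RNA polymerase before sequencing. The sources used here do not say how many flies were pooled in a library, whether libraries came from separate flies, or whether the brains of ZT24 were taken before or after lights-on.

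In the fly clock the proteins CLK and CYC drive transcription of per, tim, vri and Pdp1 in the evening. PER and TIM then accumulate, enter the nucleus and shut CLK and CYC off late in the night. VRI represses Clk and cry and PDP1 activates Clk, so that Clk mRNA runs opposite to per and tim mRNA. The LNv neurons release the neuropeptide PDF, fire more around dawn and drive morning activity, and the terminals of the small LNv cells change shape through the day.

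The 12 libraries were checked before the comparison. Pdf itself took between 19.3% and 30.1% of all TPM at ZT22-24 and between 19.9% and 25.9% at ZT18-20, so that the defining marker of LNv neurons was abundant in both groups. TPM (a share of the library corrected for transcript length) carry no sequencing depth, so the depth behind each value is unknown. Between 10576 and 11797 genes were above 0 at ZT22-24, against between 11597 and 12942 at ZT18-20, lower in all 3 conditions (exact permutation p = 0.00926 two-sided, the smallest it can give; 0.13 adjusted over 14 library measures). The GFP reporter lay at 4807 to 19727 TPM at ZT22-24 and at 17088 to 25830 TPM at ZT18-20 (exact permutation p = 0.0648). Some libraries stood apart from the others in single measures. HC18 ZT22 held 195 TPM of the gene fmt against at least 8123 TPM in the others, HC18 ZT24 had the lowest median rank correlation with the other 11 (0.891), and LC25 ZT18 held 1037 TPM of 11 summed photoreceptor markers against 24.1 to 60.8 TPM in the 6 libraries of ZT22-24. Peptide genes of other clock and brain neurons were high in single libraries: Mip stood at 1376 TPM in HC25 ZT24 (at most 2.69 TPM elsewhere), and CNMa at 535 TPM and AstC at 861 TPM in HC18 ZT24 (at most 57.5 and 272 TPM elsewhere). Summed markers of glia ranged from 148 to 315 TPM at ZT22-24 and from 141 to 327 TPM at ZT18-20, those of Kenyon cells reached 1841 TPM at ZT22-24 and 1748 TPM at ZT18-20, and those of haemocytes reached 2.22 and 2.06 TPM. In HC25 ZT22 the gene sNPF, also taken as an LNv marker, gave 1464 of the 1841 TPM of Kenyon cell markers. Indy gave 282 of the 315 TPM of glial markers there, so both sums rested mainly on single genes. None of the 9 marker sums of other cell types differed between the groups past the threshold in the exact permutation test. The glial genes repo, alrm, moody and wrapper reached at most 1.04, 2.65, 1.43 and 3.10 TPM. Of the glial markers beside these and Indy, nrv2 ranged from 6.63 to 22.3 TPM and Eaat1 reached 10.6 TPM in HC25 ZT18. Gs2 stood at 58.7 TPM in HC18 ZT24 (at most 14.5 TPM elsewhere). The part of any of these measures in the results was not tested. Since nothing shows that libraries came from separate flies, how far the spread behind each p-value is technical is unknown. Each condition was sampled once per time. That spread therefore also holds change between the times of a group and differences between conditions in the step.

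Of 8460 genes tested, 87 (1.03%) changed between ZT18-20 and ZT22-24: 29 were higher (0.343%) and 58 lower (0.686%) at ZT22-24 in limma, at a Benjamini-Hochberg adjusted p below 0.05. All 87 moved in the same direction in all 3 conditions, a count favoured by choosing genes on the pooled step. Of the higher genes 22, and of the lower genes 30, moved by at least 2-fold. The median log2 difference over all genes was -0.06. The 6 values of one group lay wholly apart from the 6 of the other for 19 of the 29 higher genes (0.449% of all genes were apart and higher) and for 36 of the 58 lower genes (0.922% apart and lower). In these bulk libraries fewer cells of a type and less RNA per cell cannot be told apart. Without the 4 HC25 libraries only 1 gene, lower and not among the 87, was called, without the 4 LC25 libraries 13, and without the 4 HC18 libraries 55. Leaving out 1 library at a time gave between 11 higher genes (without LC25 ZT20) and 54 (without HC18 ZT22), and between 19 lower genes (without HC25 ZT18) and 127 (without HC18 ZT22). The 30 genes called in all 12 of these fits include Clk, tim, Cipc, CCHa1-R, Dyrk2, aop, robo3, ctrip and CG12290.

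**Figure D1:**
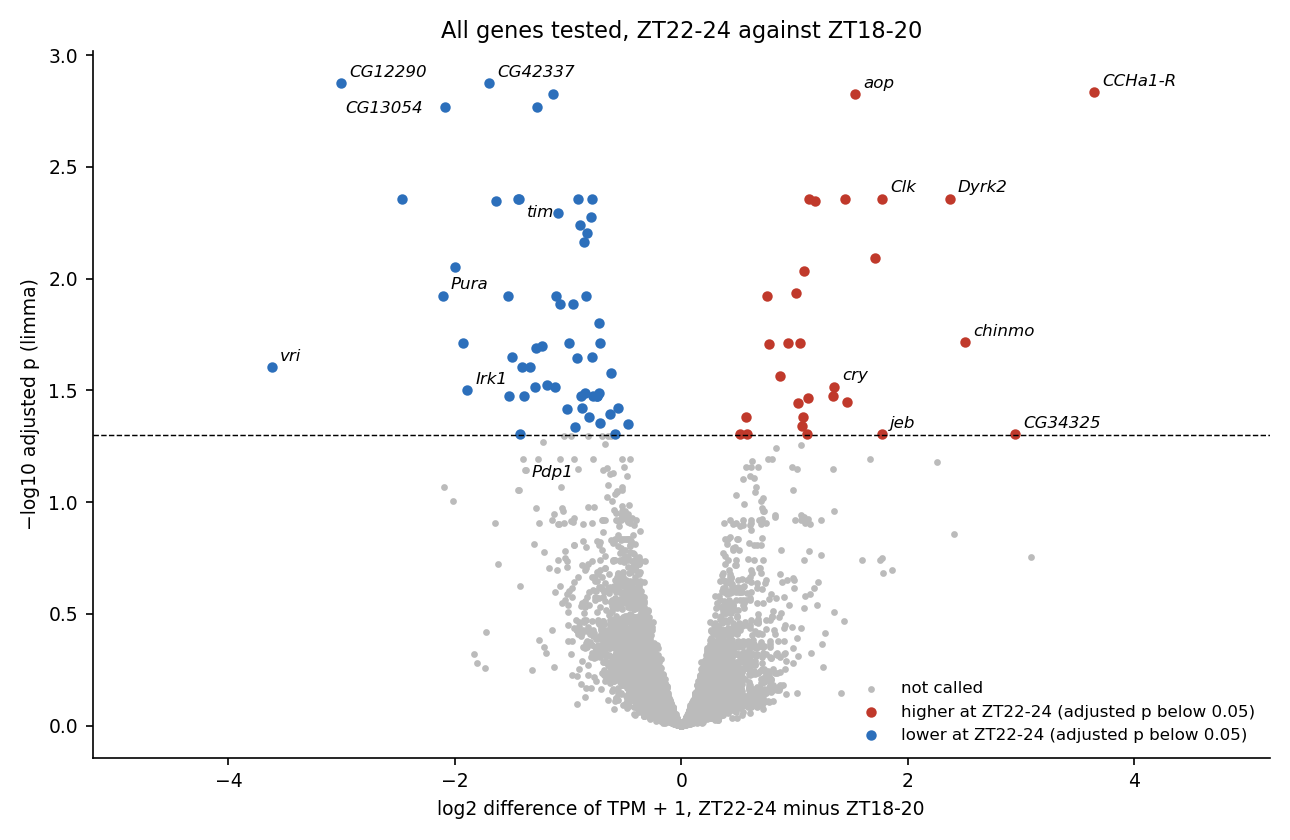
Each point is 1 of the 8460 genes tested, with the log2 difference of TPM + 1 (ZT22-24 minus ZT18-20) on the x axis and −log10 of the limma adjusted p on the y axis; the dashed line marks an adjusted p of 0.05. The 29 higher genes (red) reach 3.65 for CCHa1-R, and the 58 lower genes (blue) reach -3.62 for vri.

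In the core clock 2 of 8 genes rose, 2 fell and 4 did not pass, beside 0.343% of all genes higher and 0.686% lower. Clk, which encodes the activator, stood at a median of 113 TPM at ZT22-24 (lowest 41.5, highest 135), against 24.7 TPM at ZT18-20 (lowest 18.5, highest 35.5). No library of ZT22-24 was as low as any of ZT18-20, and the log2 difference was 1.77 ± 0.25 (standard error, as in all log2 differences below) (limma adjusted p = 0.0044). The photoreceptor gene cry, whose protein resets the clock in blue light, had a median of 1035 TPM at ZT22-24 (395 to 1389) and of 336 TPM at ZT18-20 (223 to 782), a log2 difference of 1.35 ± 0.27 (adjusted p = 0.030). Its groups overlapped: LC25 ZT22, at 395 TPM, lay below HC18 ZT20, at 782 TPM. The call of cry was lost in 7 of the 12 fits without 1 library, among them each of the 4 without an HC25 library.

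The gene vri, the repressor of Clk and cry, had the largest fall of the 87 genes. It lay between 68.3 and 85.2 TPM at ZT22 and between 3.28 and 19.1 TPM at ZT24, against 192 to 385 TPM at ZT18-20, with no overlap. Its log2 difference was -3.62 ± 0.70 (limma adjusted p = 0.025). The call was lost in 8 of the 12 fits without 1 library, with the fall in the same direction in all of them. For tim, the partner of per, the median was 138 TPM at ZT22-24 (80.9 to 230) and 386 TPM at ZT18-20 (226 to 493.01), a log2 difference of -1.43 ± 0.20 (adjusted p = 0.0044). HC25 ZT22, the highest of its group at 230 TPM, just exceeded HC18 ZT20 at 226 TPM, while within each condition both later libraries lay below both earlier ones. Pdp1, the activator of Clk, had medians of 400 and 1495 TPM at ZT22-24 and ZT18-20 (log2 difference -1.39 ± 0.33, adjusted p = 0.064). The differences of per (-0.70, adjusted p = 0.12), of the transcriptional repressor gene cwo (-0.58, adjusted p = 0.11) and of cyc, the partner of Clk (-0.07, adjusted p = 0.92), did not pass either. Pdp1, per and cwo were lower at ZT24 than at ZT18 in each of the 3 conditions, and cyc had no common direction.

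**Figure D2:**
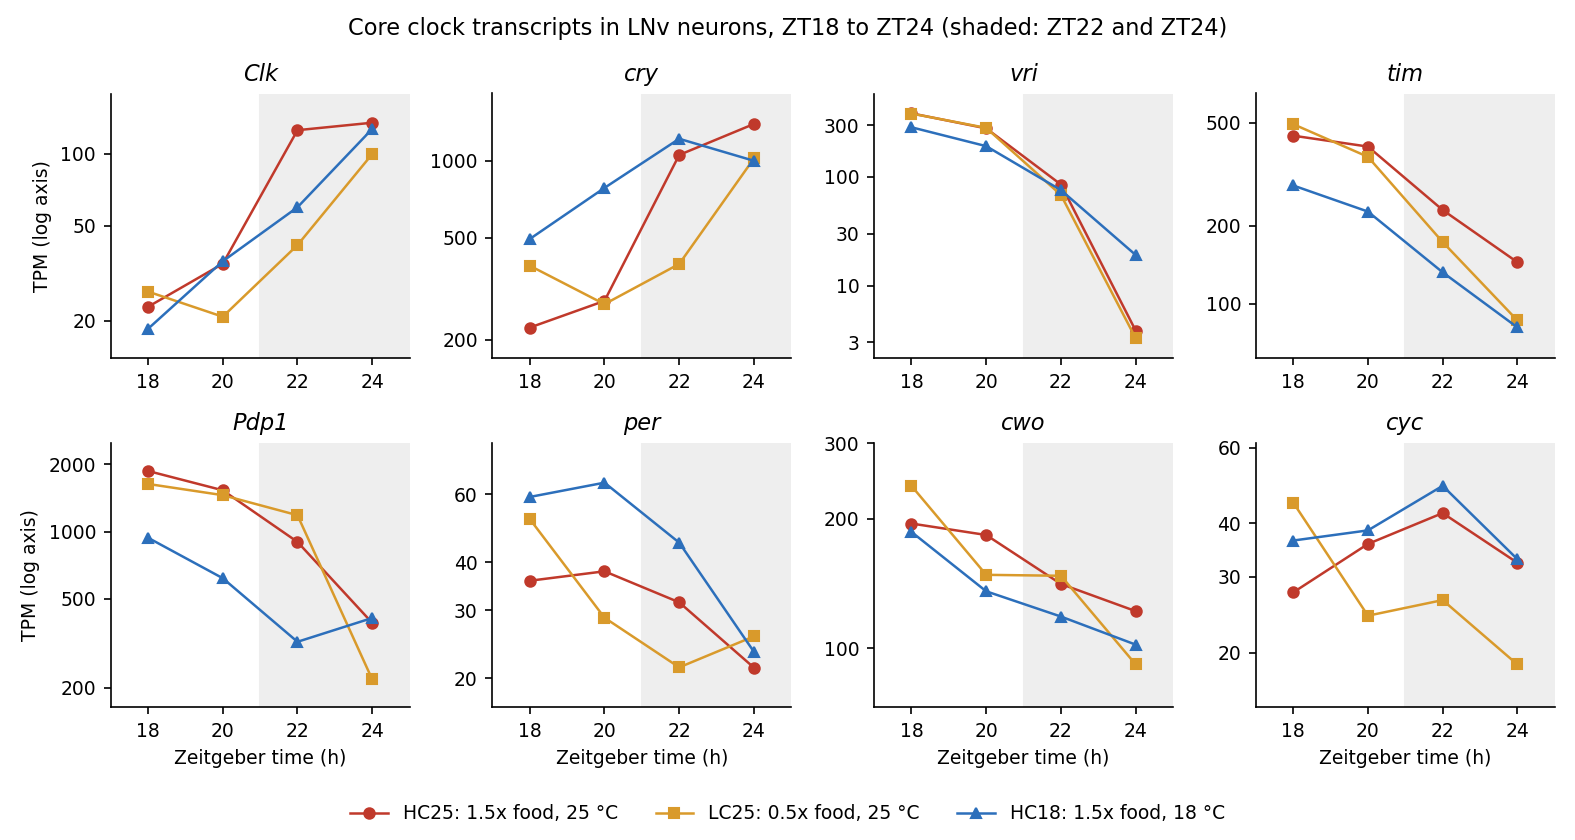
TPM (log axis) of the 8 core clock genes at ZT18, ZT20, ZT22 and ZT24, 1 line per condition and 1 point per library; the shaded area holds ZT22 and ZT24. The rise of Clk to at least 99.8 TPM and the fall of vri to at most 19.1 TPM at ZT24 are seen in all 3 conditions, while cyc shows neither.

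In the lists drawn up for action on clock proteins, 1 of 15 kinases and phosphatases rose and 2 of 13 ubiquitin pathway genes fell. Membership in a list does not show that a gene acts on a clock protein. Of 13 CLK regulators and translation cofactors of per 2 fell, beside 0.343% of all genes higher and 0.686% lower. The members of these and the other lists were chosen with earlier results of these data known, so all list counts are a description. Dyrk2, a protein kinase gene, had a median of 189 TPM at ZT22-24 (64.4 to 255) and of 26.8 TPM at ZT18-20 (18.1 to 52.9), with no overlap (log2 difference 2.37 ± 0.33, limma adjusted p = 0.0044). The kinase genes dco (-0.44, adjusted p = 0.24), nmo (0.43, adjusted p = 0.21) and bsk (-0.37, adjusted p = 0.13) did not pass. The ubiquitin ligase gene ctrip, which in flies lowers CLK and PER protein, ranged from 18.7 to 29.3 TPM at ZT22-24 and from 50.7 to 74.5 TPM at ZT18-20 (-1.28 ± 0.16, adjusted p = 0.0017). The deubiquitinase gene Usp8, which acts on CLK, ranged from 26.9 to 54.5 TPM at ZT22-24 and from 72.0 to 92.0 TPM at ZT18-20 (-1.10 ± 0.19, adjusted p = 0.012), and lost its call without HC25 ZT18. Cipc, the counterpart of a mammalian inhibitor of CLOCK, had medians of 58.9 TPM at ZT22-24 and 172 TPM at ZT18-20 (-1.45 ± 0.21, adjusted p = 0.0044). Each of these 3 falling genes had its groups apart. Mef2, a transcription factor gene tied to remodelling of the small LNv terminals, ranged from 61.7 to 90.8 TPM at ZT22-24 and from 100.7 to 136 TPM at ZT18-20 (-0.62 ± 0.13, adjusted p = 0.040). Its groups were apart too, but the call held in only 2 of the 12 fits without 1 library.

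Genes of neuropeptide signalling held the largest rise of the 87 genes. CCHa1-R encodes a receptor of CCHamide-1, a peptide that dorsal clock neurons make. It stood at 38.9 to 118 TPM at ZT22 and at 140 to 269 TPM at ZT24, against 3.29 to 9.65 TPM at ZT18 and 6.75 to 20.3 TPM at ZT20. The groups were far apart (log2 difference 3.65 ± 0.42, 12.5-fold, limma adjusted p = 0.0015). In means over 6 libraries per 4 h of the day, its level was 2.34 TPM at ZT14-16 and 59.4 TPM at ZT02-04, and 129 TPM at ZT22-24, its highest of the day. A further receptor gene, ETHR, for ecdysis-triggering hormone, ranged from 6.66 to 18.7 TPM at ZT22-24 and from 1.27 to 3.18 TPM at ZT18-20 (1.71 ± 0.28, adjusted p = 0.0081); it is in none of the lists and was picked after its values were seen. Dh31-R, a receptor of the clock neuropeptide DH31, had medians of 28.2 TPM at ZT22-24 and 64.3 TPM at ZT18-20 (-0.96 ± 0.17, adjusted p = 0.013), with overlap because HC18 ZT22 held 54.3 TPM and HC25 ZT20 34.6 TPM. Its call was lost without HC25 ZT18 and without LC25 ZT20. In the list of 14 peptides and receptors of clock neurons 1 rose and 1 fell, beside 0.343% and 0.686% of all genes. Pdf (0.06, adjusted p = 0.95), its receptor gene Pdfr (-0.49, adjusted p = 0.48) and the peptide gene NPF (0.70, adjusted p = 0.20) did not pass. The secreted ligand gene jeb, which signals through the receptor Alk, ranged from 70.3 to 109 TPM at ZT22 and from 189 to 448 TPM at ZT24, against 39.7 to 59.8 TPM at ZT18-20 (1.77 ± 0.40, adjusted p = 0.0496). It was the last gene inside the threshold, with dpr8 (adjusted p = 0.0504) the first outside, and its call held in 2 of the 12 fits without 1 library.

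The BTB zinc finger gene chinmo, which in flies sets the temporal identity of neurons, ranged from 25.3 to 51.8 TPM at ZT22 and from 107 to 300 TPM at ZT24, against 10.3 to 16.5 TPM at ZT18-20 (log2 difference 2.51 ± 0.46, limma adjusted p = 0.019). All 6 later libraries lay above all 6 earlier ones, and the call was lost without HC25 ZT18, HC25 ZT20, LC25 ZT20 or LC25 ZT24. The ETS repressor gene aop (also called yan) had medians of 69.2 TPM at ZT22-24 and 20.9 TPM at ZT18-20, apart (1.53 ± 0.18, adjusted p = 0.0015). Its values at ZT22, between 48.6 and 79.5 TPM, spanned the 65.3 to 73.3 TPM of ZT24. For robo3, a receptor of the axon guidance protein Slit, the range was 18.6 to 41.3 TPM at ZT22-24 and 9.58 to 18.0 TPM at ZT18-20 (1.18 ± 0.17, adjusted p = 0.0045). The gene twit, of the Ly6 family, had medians of 300 TPM at ZT22-24 and 119 TPM at ZT18-20 (1.34 ± 0.28, adjusted p = 0.034), with steps of 1.80 in HC25, 1.73 in LC25 and 0.50 in HC18, and its call held in 4 of the 12 fits without 1 library. Of 17 genes of axon terminal remodelling 2 fell, Mef2 and Pura, beside 0.686% of all genes. Pura encodes an activator of the GTPase Rho1 and is known in flies for a role in the daily change of the LNv terminals. It ranged from 1.32 to 10.2 TPM at ZT22-24 and from 10.4 to 32.6 TPM at ZT18-20 (-2.11 ± 0.36, adjusted p = 0.012), apart by a narrow margin. Of 51 adhesion molecules of the immunoglobulin superfamily only dpr12 passed (-0.62 ± 0.12, adjusted p = 0.026; 3 of the 12 fits without 1 library), a share near the 1.03% of all genes called.

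Among ion channel genes, Irk1, an inward rectifier potassium channel and 1 of 18 potassium channels tested, ranged from 12.5 to 31.5 TPM at ZT22 and from 4.25 to 7.33 TPM at ZT24, against 34.4 to 61.8 TPM at ZT18-20, apart (log2 difference -1.89 ± 0.38, limma adjusted p = 0.031). Its exons overlap those of CG46310 and cnc in the annotation, so reads may be divided among them. Such an overlap with another gene's exon, on either strand, was found for 31 of the 87 genes, among them cry, aop, twit, Targ3, ctrip, Trpm, CG31323 and CG34325. For 20 of the 87 the overlap was with another tested gene. The share among all genes was not counted. The other 17 potassium channels tested did not pass, and 0 of 12 sodium, calcium and leak channels passed (median -0.23, with 11 of the 12 below 0). Positive differences were found for 41.7% of all genes. Calx, a sodium and calcium exchanger, ranged from 10.7 to 35.2 TPM at ZT22-24 and from 35.6 to 45.7 TPM at ZT18-20 (-1.19 ± 0.24, adjusted p = 0.030), and was the only member called of 20 genes of cyclic AMP and calcium signalling. Of all genes 0.686% were called lower. The cation channel gene Trpm, outside the lists and picked after its values were seen, had medians of 16.95 TPM at ZT22-24 and 46.2 TPM at ZT18-20 (-1.23 ± 0.23, adjusted p = 0.020). The groups of Trpm overlapped, with a highest value of 40.4 TPM at ZT22-24 and a lowest of 33.4 TPM at ZT18-20. Irk1 and Calx each held their call in 3, and Trpm in 5, of the 12 fits without 1 library. Of 29 transmitter receptors 0 passed, with the serotonin receptor gene 5-HT1A just outside (-1.03 ± 0.23, adjusted p = 0.0504).

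In energy metabolism single genes passed in both directions, while 0 genes of the respiratory chain and of the cytosolic ribosome passed. Idh, isocitrate dehydrogenase, had medians of 484 TPM at ZT22-24 and 201 TPM at ZT18-20 (1.01 ± 0.17, limma adjusted p = 0.012). Argk1, arginine kinase, had medians of 764 and 385 TPM (1.06 ± 0.23, adjusted p = 0.046), with its call held in 3 of the 12 fits without 1 library. Both were picked after their values were seen, and the groups of both overlapped. The lowest value at ZT22-24 and the highest at ZT18-20 were 275 and 416 TPM for Idh, and 457 and 468 TPM for Argk1. Hex-A, the hexokinase gene, ranged from 82.7 to 108 TPM at ZT22-24 and from 137 to 195 TPM at ZT18-20 (-0.72 ± 0.13, adjusted p = 0.016). It was the only one of 15 genes of glycolysis and trehalose metabolism that passed, and it went against its list, in which 13 members had positive differences and the median was 0.35. Among 76 nuclear genes of the respiratory chain 0 passed and 66 had positive differences (median 0.24), and among 87 cytosolic ribosomal protein genes 0 passed and 76 had positive differences (median 0.16), beside 41.7% of all genes. Quantile normalization took the medians to 0.27 for glycolysis, 0.16 for the respiratory chain and 0.04 for ribosomal proteins; median ratio rescaling took them to 0.41, 0.31 and 0.23, and 2 respiratory chain genes then passed. The sums of ribosomal protein transcripts, at 12.6% to 17.7% of TPM at ZT22-24 and 10.97% to 17.5% at ZT18-20, did not differ past the threshold (exact permutation p = 0.21). In all, 17 of the 28 lists held no called gene, and 71 of the 87 called genes were in no list.

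**Figure D3:**
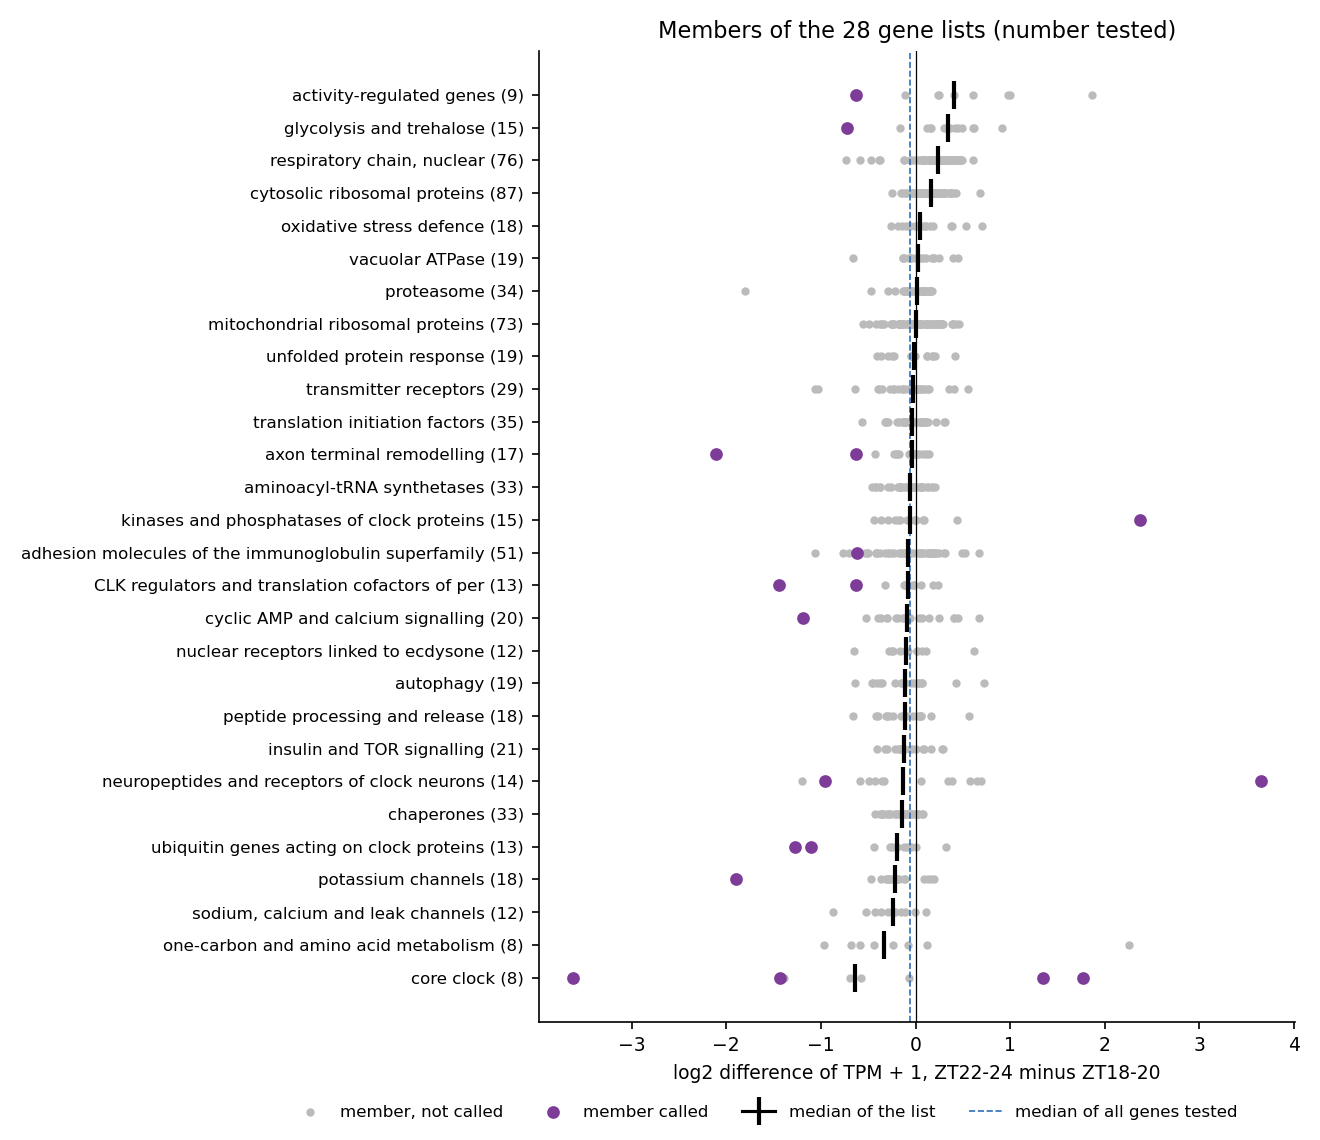
Each row is 1 of the 28 gene lists, with the number of genes tested in brackets; dots are members at their log2 difference (ZT22-24 minus ZT18-20), purple where called, and black bars are list medians. The core clock spreads from -3.62 to 1.77, while the ribosomal protein and respiratory chain lists sit in narrow bands with medians of 0.16 and 0.24.

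Several of the largest changes were in genes known only by an annotation number. CG12290 had a median of 15.2 TPM at ZT22-24 (5.30 to 31.4) and of 120 TPM at ZT18-20 (79.2 to 187), a log2 difference of -3.01 ± 0.33 with the groups far apart (limma adjusted p = 0.0013). CG13054 ranged from 132 to 352 TPM at ZT22-24 and from 764 to 1472 TPM at ZT18-20 (-2.09 ± 0.26, adjusted p = 0.0017). CG42337 ranged from 43.4 to 80.2 TPM at ZT22-24 and from 150 to 287 TPM at ZT18-20 (-1.70 ± 0.19, adjusted p = 0.0013). All 3 were called in every fit without 1 library. CG34417 (-2.47), CG31323 (-1.93), CG14086 (-1.64) and Targ3 (-1.53) fell as well, and the groups of CG34417, CG31323 and Targ3 overlapped through HC18 ZT22. CG34325 ranged from 5.61 to 9.72 TPM at ZT22 and from 36.7 to 146 TPM at ZT24, against 1.54 to 3.54 TPM at ZT18-20 (2.95 ± 0.66, adjusted p = 0.0496), and its call held in 3 of the 12 fits, that of CG31323 in 7. CG34155 (1.45 ± 0.21) and CG32369 (1.13 ± 0.17) rose with their groups apart and were called in all 12 fits.

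No gene had a step that was called different between the conditions. In limma 0 of 8460 genes (0%) had a step that differed between HC25, LC25 and HC18, 327 had an unadjusted p below 0.05, and the smallest adjusted p was 0.28. The median step of the 29 higher genes was 1.35 in HC25, 1.10 in LC25 and 0.93 in HC18, and that of the 58 lower genes was -1.10, -1.18 and -0.86. These medians come from genes chosen by the step itself and are a description. The steps of cry were 2.26 in HC25, 0.95 in LC25 and 0.82 in HC18 (interaction adjusted p = 0.95), and those of Pura were -3.10, -2.25 and -0.98. Without HC18 ZT22 more genes passed, but the ZT22-24 arm of HC18 is then the single library HC18 ZT24. That library had the lowest median rank correlation with the others (0.891). Time and condition cannot be told apart in that arm, so no count is given. The step of each condition was tested in the fit of all 12 libraries, with 2 libraries per arm and the spread pooled over the 3 conditions. HC25 gave 2 calls (CCHa1-R higher, and the EF-hand protein gene Eip63F-1 lower) and LC25 and HC18 gave 0 each.

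**Figure D4:**
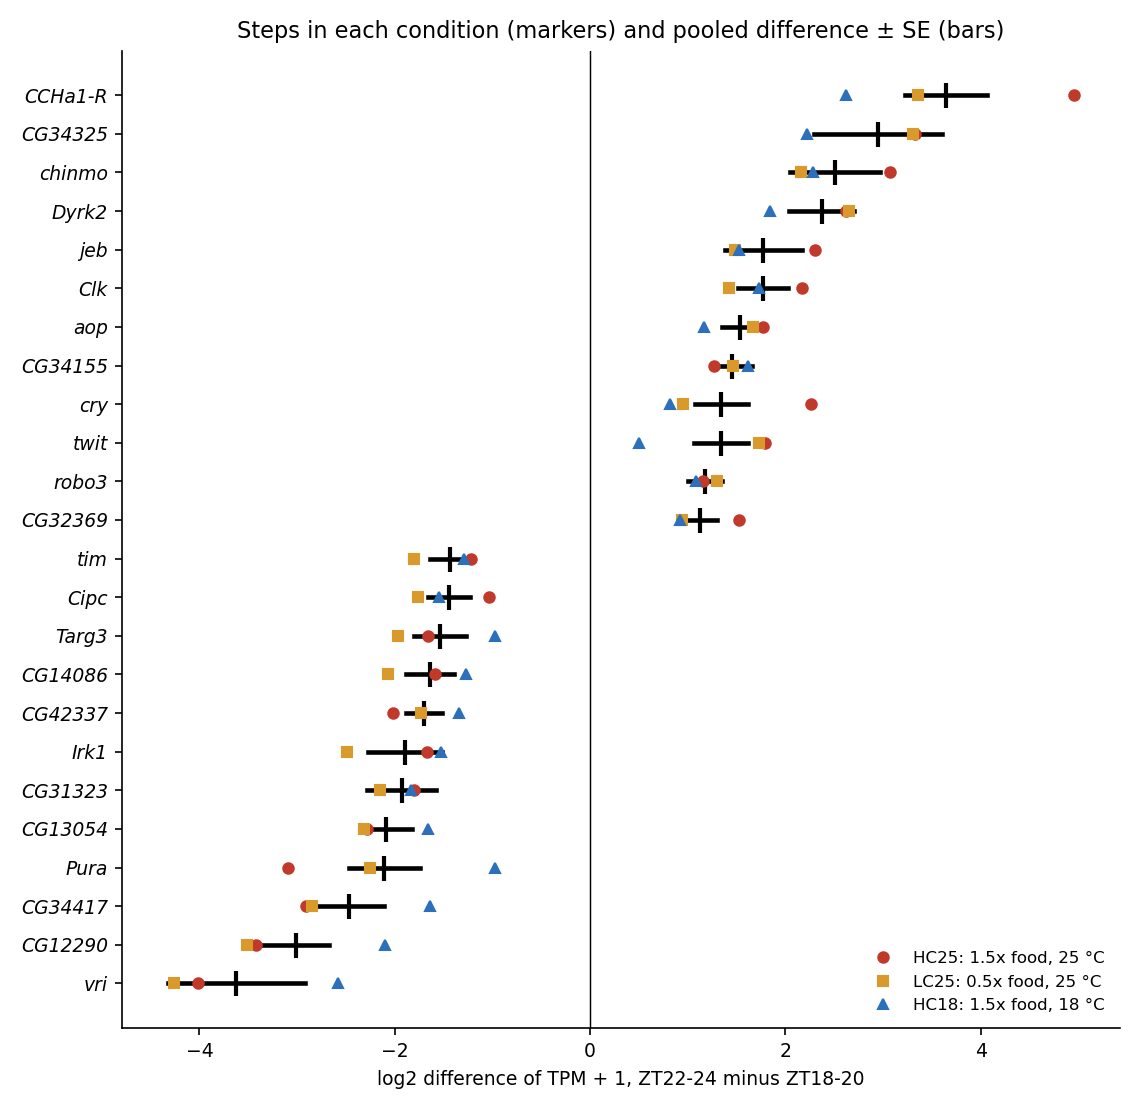
Log2 differences (ZT22-24 minus ZT18-20) of the 12 largest rises and 12 largest falls among called genes with a mean of at least 10 TPM; coloured markers are the 3 conditions, and black bars the pooled difference ± SE. By the rule that chose these genes, all markers of a gene lie on the same side of 0. HC18 is nearest to 0 for vri, CG12290, CG34417 and Pura.

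Within ZT22-24 the median change of the called genes was larger at ZT24 than at ZT22. This split, and the genes named in it, were added after the pooled values were seen. Against ZT18-20, 6 genes were higher (0.0709%) and 7 lower (0.0827%) at ZT22 alone, and 78 higher (0.922%) and 125 lower (1.48%) at ZT24 alone, each time with 3 libraries against 6. The median difference of the 29 higher genes was 0.85 at ZT22 and 1.41 at ZT24, and that of the 58 lower genes -0.88 and -1.17, beside -0.00 and -0.12 for all genes; the 87 genes were chosen on the pooled step, so these medians are a description. Of the 29 higher genes, 17 were higher at ZT24 than at ZT22 in all 3 conditions, and 1 was lower in all 3. Of the 58 lower genes, 28 were lower at ZT24 than at ZT22 in all 3 conditions, and 4 were higher. Among all 8460 genes, 545 were higher and 1631 lower at ZT24 in all 3. Some genes differed from ZT18-20 about as much at ZT22 as at ZT24: aop by 1.42 and 1.65, CG32369 by 1.17 and 1.09, and Cipc by -1.33 and -1.56. On the log2 scale others moved mainly in the last 2 h, such as chinmo (1.37 at ZT22 and 3.64 at ZT24) and vri (-1.94 and -5.30). In TPM, most of the fall of vri came before ZT24. Its mean was 352 TPM at ZT18, 252 TPM at ZT20, 76.4 TPM at ZT22 and 8.75 TPM at ZT24.

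Set directly against ZT22, ZT24 had 15 genes higher (0.177%) and 11 lower (0.13%) in limma, of which 6 were among the 87 genes of the pooled comparison: CG34325, chinmo, jeb and Dyrk2 higher, vri and Irk1 lower. Median ratio rescaling gave a median difference of all genes (ZT24 minus ZT22) of 0.01, against -0.12 in TPM as deposited, and gave 27 higher and 12 lower genes. Without LC25 ZT24 there were 8 higher and 5 lower genes, without HC18 ZT22 8 and 6, and without HC18 ZT24 25 higher genes. Of the 26 genes 9 were called in all 12 fits without 1 library: CG34325, meng, chinmo, jeb and CrebA higher, and noc, CG1146, CG11317 and CG31183 lower. The serine/threonine kinase gene meng was at 247, 580 and 314 TPM at ZT24 in HC25, LC25 and HC18, against 65.2, 35.8 and 35.9 TPM at ZT22 (log2 difference 2.99 ± 0.34, adjusted p = 0.0020). CrebA, a transcription factor gene of the secretory pathway, was at 198 to 296 TPM at ZT24 and at 73.9 to 79.7 TPM at ZT22 (1.66 ± 0.17, adjusted p = 0.0017), and its ZT22 values were close to the 59.0 to 77.5 TPM of ZT18-20. The neuropeptide gene Dh31 was at 474 to 1533 TPM at ZT24 and at 224 to 339 TPM at ZT22 (1.59 ± 0.28, adjusted p = 0.037; 6 of the 12 fits without 1 library). Its highest values, 1533 and 947 TPM, were in HC25 ZT24 and HC18 ZT24, the libraries with high Mip and with high CNMa and AstC; the part of these other neurons' markers in the call was not tested. Nmdmc, a mitochondrial enzyme gene of folate metabolism, was at 66.4 to 202 TPM at ZT24 and at 16.4 to 33.7 TPM at ZT22 (2.42 ± 0.43, adjusted p = 0.037; 3 of the 12 fits).

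Genes lower at ZT24 than at ZT22 changed as sharply. CG11317 was at 30.8 to 51.0 TPM at ZT24 and at 191 to 207 TPM at ZT22 (log2 difference -2.36 ± 0.18, limma adjusted p = 9.2e-05). The zinc finger transcription factor gene noc was at 16.96 to 24.3 TPM at ZT24 and at 61.6 to 83.5 TPM at ZT22 (-1.84 ± 0.20, adjusted p = 0.0017). Gclc, the catalytic subunit of the enzyme that starts glutathione synthesis, was at 29.2 to 44.0 TPM at ZT24 and at 73.8 to 128 TPM at ZT22 (-1.42 ± 0.20, adjusted p = 0.0095; lost in 2 of the 12 fits). The receptor gene drl, which guides axons, was at 39.3 to 62.5 TPM at ZT24 and at 98.5 to 141 TPM at ZT22 (-1.23 ± 0.20, adjusted p = 0.025; 4 of the 12 fits). CrebA, meng, Nmdmc, noc, CG11317, Dh31, Gclc and drl did not pass in the pooled comparison of ZT22-24 with ZT18-20.

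**Figure D5:**
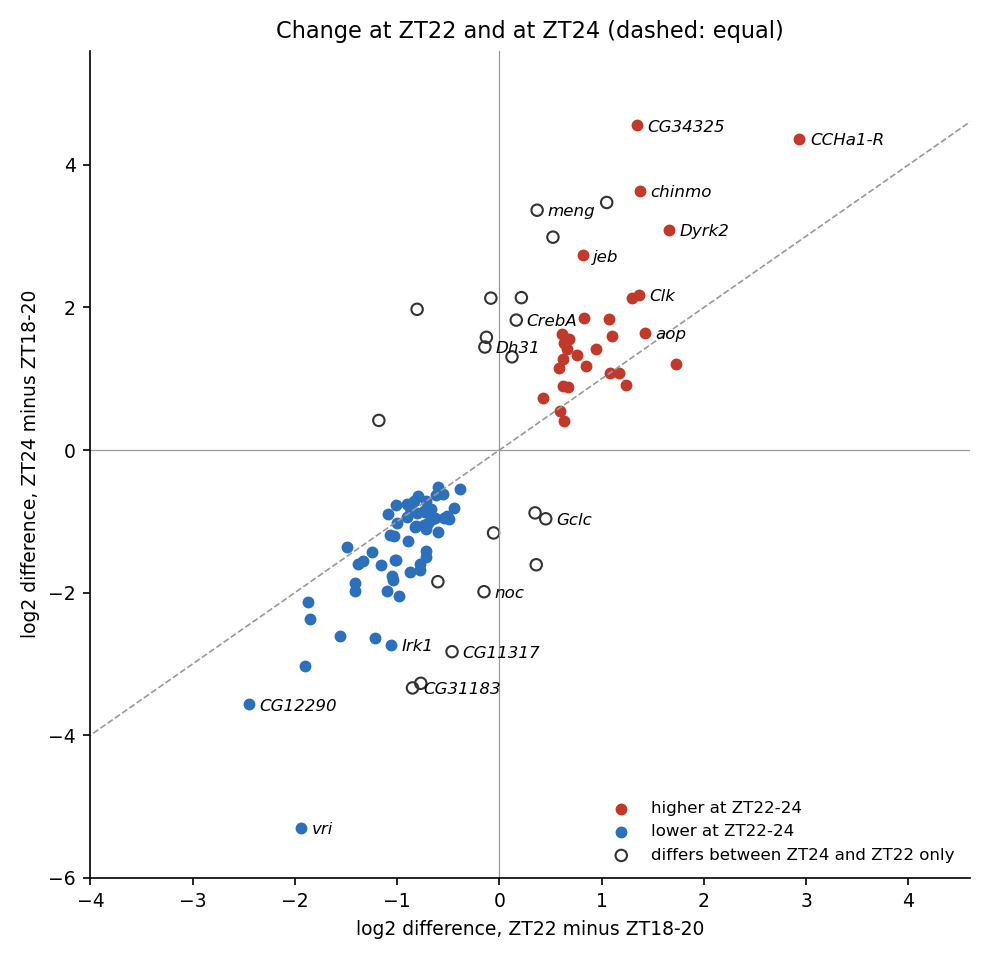
Log2 difference from ZT18-20 at ZT22 (x axis) and at ZT24 (y axis) for the 29 higher (red) and 58 lower (blue) genes and for the 20 other genes that differ between ZT24 and ZT22 (open circles); the dashed line marks equal change. CCHa1-R and CG12290 had moved far by ZT22, while meng, CrebA and noc lie near 0 at ZT22 and far from it at ZT24.

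Over the whole day, in means of 6 libraries per 4 h window, 13 of the 29 higher genes had their highest window at ZT22-24, 13 at ZT02-04 and 3 at ZT06-08, beside 1436, 652 and 1038 of all 8460 genes. Of the 58 lower genes 47 were highest at ZT14-16, and 20 had their lowest window at ZT22-24, 22 at ZT02-04 and 16 at ZT06-08. Of all genes 1885 were highest at ZT14-16, and 1566, 2875 and 1689 were lowest in those windows. Since 2 of the 6 windows chose the genes, these counts are a description. Clk, Dyrk2 and aop went on to their highest window at ZT02-04, while cry, CCHa1-R, chinmo and jeb were highest at ZT22-24.

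The step was also set against the one before it, from ZT14-16 to ZT18-20, in 18 libraries; both steps share the ZT18-20 libraries. A single gene passed, robo3 (0.0118% of genes), and 0 genes (0%) passed in the other direction, with 538 of 8460 genes at an unadjusted p below 0.05 in limma. The level of robo3 averaged 30.7 TPM at ZT22-24, 12.9 TPM at ZT18-20 and 21.2 TPM at ZT14-16. Its step of 1.18 followed one of -0.68, a difference of 1.85 ± 0.28 (adjusted p = 0.013), and the call was lost without HC25 ZT18, HC25 ZT20, LC25 ZT20 or HC18 ZT20. Its highest window came later, with 114 TPM at ZT06-08, after 108 TPM at ZT02-04. In the opposite direction nrv1, a subunit of the sodium pump, had steps of -0.05 and, before it, 2.32 (difference -2.37 ± 0.42, adjusted p = 0.078).

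Single transcripts gave fewer calls. Their values are estimates in which reads shared by isoforms of a gene are divided, and this division was not tested. Of 13709 transcripts tested 7 were higher (0.0511%) and 21 lower (0.153%) in limma. For 6 of them, from Xrp1, cu, eEF1alpha2, Crk, Nckx30C and CG7903, the gene as a whole did not pass; these were picked after their values were seen. The Xrp1 transcript FBtr0083700 had the smallest adjusted p of all (0.00048): it ranged from 17.6 to 28.6 TPM at ZT22-24 and from 68.8 to 106 TPM at ZT18-20 (log2 difference -1.89 ± 0.14), while Xrp1, a bZIP transcription factor gene, changed by -0.41 in sum (adjusted p = 0.37). Transcript FBtr0335218 of cu, the fly counterpart of the deadenylase gene nocturnin, was listed at 0 in 4 of the 6 libraries of ZT22-24. It stood at 3.32 to 10.8 TPM at ZT18-20 (limma adjusted p = 0.019), and the gene changed by -0.51 (adjusted p = 0.22). Its means were 0.728 TPM at ZT22-24 and 6.51 TPM at ZT18-20. The transcript thus passed the filter of 1 TPM only through ZT18-20, and its call is a description. The Dyrk2 transcript FBtr0100447 ranged from 24.8 to 162 TPM at ZT22-24 and from 0 to 13.7 TPM at ZT18-20, a larger step (4.74 ± 0.65, adjusted p = 0.020) than that of the gene sum. A pair of tim transcripts, FBtr0077567 and FBtr0445397, carried identical values in every library, so they count as 1 measurement (-3.05 ± 0.47, adjusted p = 0.034).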

How the data were processed

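RNA-seq of sorted LNv neurons was used from the 12 of 36 libraries taken at ZT18, ZT20, ZT22 and ZT24. The deposited values are TPM per transcript; kallisto is named in the submitters' processing notes, and the sources used here give neither its version nor the genome build nor the read depth. TPM are shares, so a fall of one abundant transcript lifts the others. Of 30485 transcripts 30246 matched the Ensembl annotation (BDGP6.54), which gave names; the other 239 held 0.139% of TPM on average. TPM were summed per gene (13817 genes), genes with a mean of at least 1 TPM over the 12 libraries were kept (8460), and log2(TPM + 1) was fitted with limma 3.58.1 (R 4.3.3, eBayes with trend) with condition as a block; a fold is on that scale and understates changes of low genes. P-values were Benjamini-Hochberg adjusted over all genes tested, with a threshold of 0.05. Conditions were compared by their interaction with time, and the preceding step in a fit of 18 libraries. Summed levels and library measures were compared by an exact two-sided permutation within conditions (216 arrangements, smallest p = 0.00926). The limma code was tested on simulated data. Named were the 12 largest rises and 12 largest falls among called genes with a mean of at least 10 TPM and the same sign in 3 conditions, the core clock genes, Pdf and Pdfr, and up to 4 genes per list and 4 per direction of the difference from the preceding step. The members and the lists were chosen with earlier results of these data known. Other time points entered the preceding step, the day windows and alternatives only. Alternatives were pseudocounts, filters, scalings, models and left-out libraries.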

Additional observations from a re-analysis of the deposited data

Results flagged for a closer look

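In groups of 6 libraries, 13 of 182 groups held 1 library far from the other 5 relative to the group's range (Dixon's criterion), where chance gives about 1 in 20. Of the libraries at ZT22-24, HC18 ZT22 was the high one for CG34417 (24.4 TPM), Targ3 (77.2 TPM) and Dh31-R (54.3 TPM) and the low one for the respiratory chain gene COX7C (739 TPM), and LC25 ZT22 was the low one for the chaperone gene Stip1 (22.95 TPM). Of the libraries at ZT18-20, HC18 ZT20 was the high one for CCHa1-R (20.3 TPM), nmo (455 TPM), COX7C (801 TPM), Idh (416 TPM) and the summed muscle markers (27.5 TPM). HC25 ZT18 was the high one for ctrip (74.5 TPM), HC25 ZT20 for the nuclear receptor gene Hr38 (7.32 TPM), and LC25 ZT18 for the summed photoreceptor markers (1037 TPM), of which ninaE gave 695 TPM against at most 18.2 TPM in the other 11 libraries. No cause was tested.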

How the results depend on the processing

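Counts of genes are given as higher and lower at ZT22-24, beside 29 and 58 as reported. They were 14 and 34 with no filter on low values, 55 and 95 in a fit of all 36 libraries, 57 and 124 for a linear trend over the 4 times, 7 and 20 genes with a called transcript, 0 and 1 without the 4 HC25 libraries, 6 and 7 without the 4 LC25 libraries, and 33 lower without the 4 HC18 libraries. Chosen after seeing the data, they were 76 and 144 without HC18 ZT22 and LC25 ZT22 together, 6 and 7 at ZT22 alone, and 78 and 125 at ZT24 alone. Leaving out 1 library gave 11 to 54 higher and 19 to 127 lower genes, with 30 of the 87 called throughout. Pseudocounts of 0.1 and 5, a minimum of 10 TPM, median ratio and quantile scaling, no block and robust variances shared between 75 and 84 of their calls with the 87. The interaction gave 0 to 120 genes on leaving out 1 library. Against the preceding step, 1 and 0 genes became 23 and 9 with all 36 libraries, 1 lower gene with a minimum of 10 TPM, and 0 to 4 and 0 to 5 on leaving out 1 library. For ZT24 against ZT22, 15 higher genes became 27 with median ratio and 24 with quantile scaling; leaving out 1 library gave 8 to 25 higher and 5 to 14 lower genes. The uncalled difference of cyc was 0.16 without the LC25 libraries and 0.16 at ZT22 alone, and that of Pdf was -0.0474 without the LC25 libraries, both reversed; on leaving out 1 library they ranged from -0.164 to 0.0916 and from -0.0211 to 0.109. The cause of these shifts was not tested. No paired analysis was possible because the labels give no replicate numbers; the fits block on condition instead. Depth is unknown, which limits what can be said of low genes.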
